A study of Mus musculus with 14 samples.

Results

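The 10 CC chemokine genes Ccl2, Ccl3, Ccl4, Ccl5, Ccl6, Ccl7, Ccl8, Ccl9, Ccl12 and Ccl24 were followed in primary bone marrow-derived macrophages (pBMDMs). They were taken by gene symbol from a table of 55414 genes, and all 10 were among the 12851 genes that passed the filter on low counts. Bone marrow of wild-type C57BL/6N mice was differentiated with M-CSF, and the macrophages were then kept for 24 h in filtered culture supernatant of Pfa1 mouse embryonic fibroblasts (MEFs) or in fresh medium. Pfa1 MEFs lose GPX4, the enzyme that removes lipid hydroperoxides, after 4-hydroxytamoxifen (4OHT), and then die by ferroptosis, which Ferrostatin-1 (Fer1) blocks. The 5 groups were supernatant of untreated MEFs (ctrl), of MEFs given 4OHT (the ferroptotic supernatant), of MEFs given 4OHT and Fer1, of MEFs given Fer1 alone, and fresh medium never in contact with MEFs (medium). Each supernatant had 3 replicates and the medium had 2, with the replicate numbers 1 and 2. 4OHT and Fer1 were given to the MEFs, and what of them was still in a supernatant was not measured.

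CC chemokines are small secreted proteins that attract leukocytes through G protein-coupled receptors of the CCR family. Ccl2, Ccl7, Ccl8 and Ccl12 are monocyte chemoattractant proteins, and Ccl3, Ccl4 and Ccl5 are inflammatory chemokines made by activated macrophages. Ccl6 and Ccl9 are ligands of Ccr1 made by rodent myeloid cells without a stimulus, and Ccl24 is an eotaxin, which acts on eosinophils through Ccr3. Macrophages are a main source of most of these proteins in inflamed tissue.

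Libraries were made with QuantSeq, which reads the 3′ end of a transcript. A count therefore does not scale with transcript length, and levels of different genes can be set side by side as tags. Values are CPM, counts scaled to the TMM-adjusted library size. Total counts lay between 7823051 and 11052352 per library, and 3 counts, taken as the lowest amount that can be told from none, were worth between 0.272 and 0.381 CPM. All 8 macrophage markers were detected in every group. The mitochondrial share of counts was between 8.50% and 10.6% in the libraries numbered 3 and between 4.53% and 7.77% in the others.

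In the mouse genome, 9 of the 10 genes lie in 2 blocks of chromosome 11 (GRCm38, GENCODE M21 annotation). The first block spans 81.2 kb and holds Ccl2 (ENSMUSG00000035385, chr11:82035571-82037453), Ccl7 (chr11:82045712-82047525), Ccl12 (chr11:82101845-82103400) and Ccl8 (ENSMUSG00000009185, chr11:82115185-82116799), all on the plus strand. Ccl11, another eotaxin, lies between Ccl7 and Ccl12 and had 0 counts in all 14 libraries. The second block spans 138.9 kb and holds Ccl5 (ENSMUSG00000035042, chr11:83525778-83530518), Ccl9 (chr11:83572919-83578636), Ccl6 (ENSMUSG00000018927, chr11:83587882-83593087) and Ccl3 (chr11:83647844-83649355) on the minus strand and Ccl4 (chr11:83662584-83664683) on the plus strand. Ccl24 (ENSMUSG00000004814) lies on chromosome 5 (chr5:135569937-135573049, minus strand). Ccl2 overlaps the opposite-strand gene Gm17268, which had 0 counts, and Ccl6 overlaps E230016K23Rik, with 9 counts in all libraries together against 37921 for Ccl6. No run of 50 bases of a member's transcripts was shared with another gene, except in Ccl9, where 59 of 2996 such runs (1.97%) were.

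Promoter sequence (GRCm38.p6, RefSeq) was at hand for 5 of the 10 genes, Ccl3, Ccl6, Ccl8, Ccl9 and Ccl12. The 100 bases before the start site of the neighbours Ccl12 and Ccl8 are shown because both were lower in medium than in ctrl in each replicate, though only Ccl8 passed the test, and those of Ccl6 because it was highest in the ferroptotic supernatant among the supernatants. Capitals mark TATAAA, the core of the TATA box, and the sequences are written 5′ to 3′ on the gene's strand.
Ccl12 (chr11:82101745-82101844, plus strand): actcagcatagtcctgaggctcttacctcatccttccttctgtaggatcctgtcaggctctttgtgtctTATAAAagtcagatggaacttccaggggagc
Ccl8 (chr11:82115085-82115184, plus strand): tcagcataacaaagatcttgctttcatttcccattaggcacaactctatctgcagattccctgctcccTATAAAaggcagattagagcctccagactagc
Ccl6 (chr11:83593088-83593187, minus strand): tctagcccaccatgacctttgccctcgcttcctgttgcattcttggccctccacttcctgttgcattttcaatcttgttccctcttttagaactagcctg
TATAAA began 31 bases before the start in Ccl12 and 32 bases before it in Ccl8. On the gene's strand, the motif was present within 250 bases before the start in Ccl12, Ccl8 and Ccl9, or 3 of 5 member promoters, and in 7.59% of 32851 windows of that length. The NF-kB consensus, searched on both strands, was in Ccl9 alone and in 7.25% of all windows. A match is a description of these letters and not a measured binding site.

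The 10 genes covered a wide range of levels. Ccl9 led, with a median of 718 CPM over the 14 libraries (428 to 825), followed by Ccl6 with 269 CPM (146 to 485) and Ccl3 with 66.4 CPM (25.2 to 103). In each of the 14 libraries Ccl9 was above Ccl6, and Ccl6 above Ccl3. Together, Ccl6 and Ccl9 made up between 76.8% and 94.1% of the counts of the 10 genes. Ccl4 (median 40.4 CPM, 7.62 to 83.4) was below Ccl3 of the same library in all 14. Ccl4 and Ccl5 (median 33.6 CPM, 6.07 to 152) changed places, with Ccl4 higher in 9 of 14 libraries. The monocyte chemoattractants were lower, with medians of 7.90 CPM for Ccl2, 6.66 CPM for Ccl12, 4.08 CPM for Ccl8 and 2.80 CPM for Ccl7. Neighbours in that order were not separated in every library, since Ccl2 exceeded Ccl12 in 10 of 14, Ccl12 exceeded Ccl8 in 10 of 14 and Ccl8 exceeded Ccl7 in 8 of 14. Ccl24 was near the lowest detectable amount, with a median of 0.635 CPM and 92 counts in all libraries together.

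The spread over libraries differed between the members. The highest library held 1.93 times the lowest for Ccl9, 3.31 times for Ccl6, 25.1 times for Ccl5 and 27.5 times for Ccl2. Much of that spread followed the replicate number. In all 4 supernatants, the library numbered 3 had the lowest value of Ccl2, Ccl3, Ccl4, Ccl5, Ccl7, Ccl8, Ccl9 and Ccl12. For Ccl6 it was lowest in 3 of 4, and Ccl24 was highest in replicate 3 in 3 of 4. The mean of replicates 1 and 2 was 3.05 to 5.54 times replicate 3 for Ccl4 and 1.26 to 1.74 times for Ccl9. The replicate number is a term of the model. The medium had no library numbered 3, so its values are set beside replicates 1 and 2 of the supernatants.

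**Figure D1:**
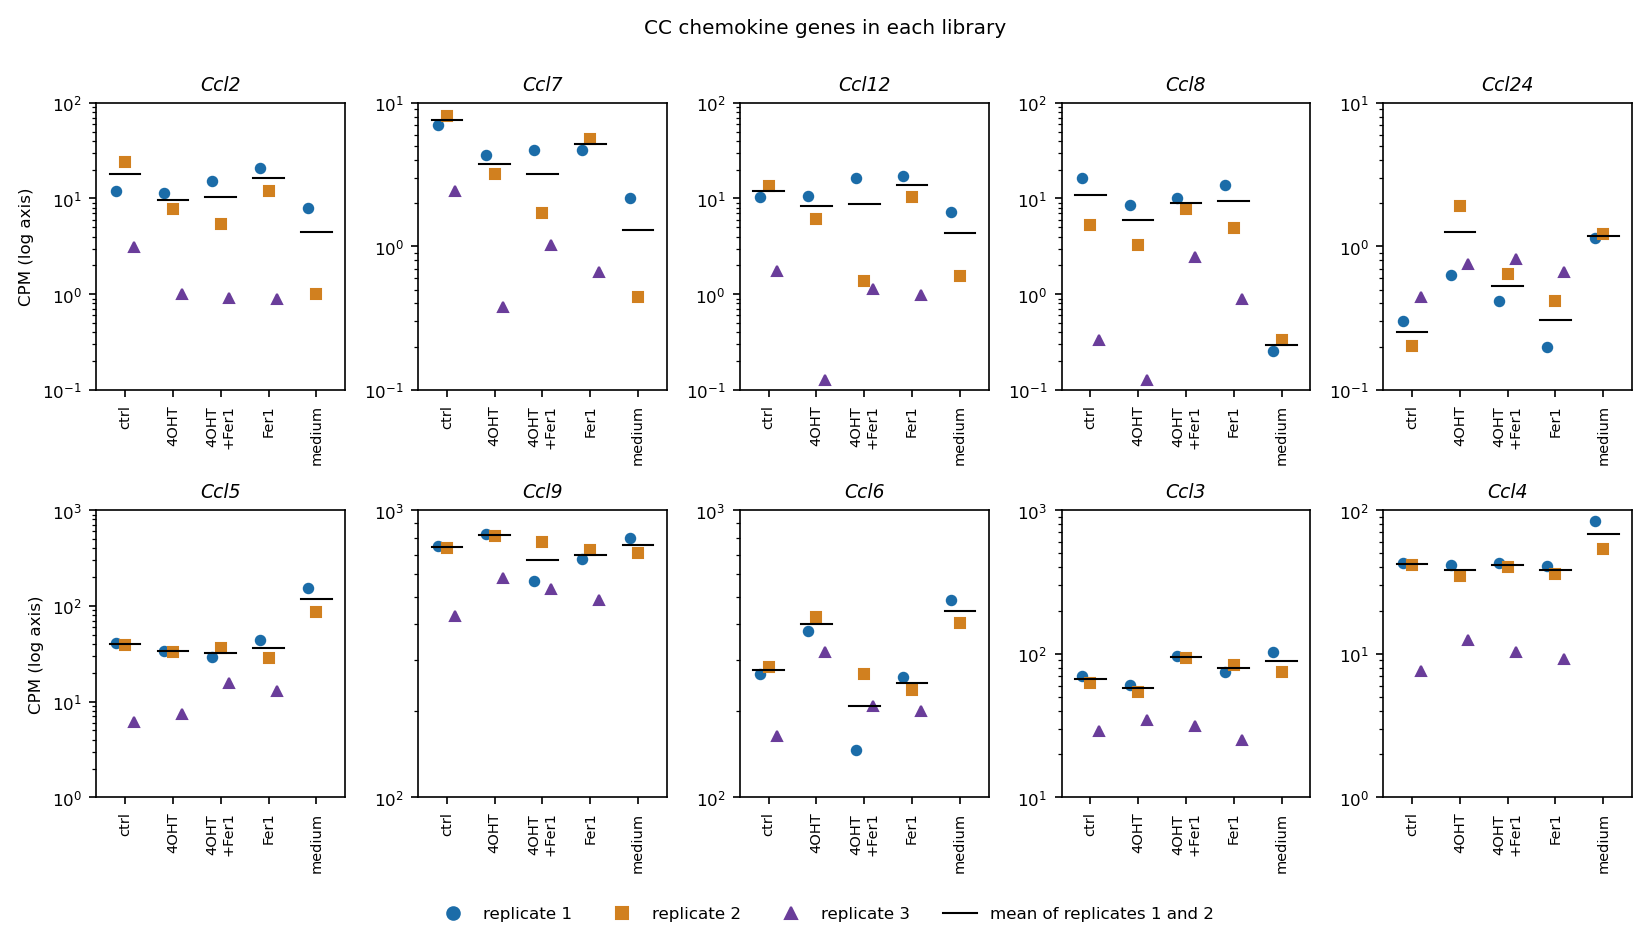
CPM of each CC chemokine gene (log axes that differ between panels) in every library of the 5 groups, with symbols for the replicate number and a line at the mean of replicates 1 and 2. Replicate 3 lies lowest in all 4 supernatants for Ccl2, Ccl3, Ccl4, Ccl5, Ccl7, Ccl8, Ccl9 and Ccl12, and the medium libraries lie lowest among replicates 1 and 2 for Ccl8 and highest for Ccl5 and Ccl4.

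The first question was what fibroblast-conditioned supernatant of living cells does to these genes, which fresh medium against ctrl addresses. Against ctrl, medium had less mRNA of 3 of the 4 monocyte chemoattractants (Ccl2, Ccl7 and Ccl8) and more of Ccl5. A gene was called where its log2 fold change exceeded 1 in size and its adjusted p was under 0.05 in edgeR's quasi-likelihood test, adjusted by Benjamini-Hochberg over all 12851 genes. By that rule 4 of 10 members were called, 1 higher and 3 lower, where 7.79% of all genes were called (3.69% higher and 4.10% lower). Scaling by library size alone, which shifts the median log2 fold change of all genes by -0.12 in this comparison, left 1000 genes called with 359 higher, in place of 1001 with 474 higher. At an adjusted p under 0.05 and any fold change, 6 of 10 members passed, with Ccl4 and Ccl6 added, where 10.9% of all genes did. The median log2 fold change of the 10 members was 0.25, beside 0.01 for all genes tested, since members lay on both sides of 0. In bulk RNA, fewer cells that make a transcript and less of it per cell cannot be told apart.

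Ccl8, a monocyte chemoattractant, had the largest difference among the members. It had 16.5 CPM in ctrl replicate 1 and 5.33 CPM in ctrl replicate 2, and 0.254 and 0.334 CPM in medium replicates 1 and 2. Both medium values are 2 to 3 counts. Ctrl replicate 3, with 0.331 CPM, lay between the medium libraries, so the groups overlap when that library is included. The fitted log2 fold change of medium against ctrl was -4.80 (standard error [SE] 0.79, adjusted p = 0.00193, edgeR). A fitted value so near the lowest amount depends on the prior count. From the counts alone, replicates 1 and 2 of ctrl held 216 counts against 5 in medium, a ratio of 36.8 per library size (95% interval 15.5 to 114, counting error only).

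Ccl2 attracts monocytes through Ccr2. It had 12.0 and 24.2 CPM in ctrl replicates 1 and 2, and 8.0 and 1.00 CPM in medium replicates 1 and 2. Medium was lower within both replicate numbers, with log2 CPM differences of -0.57 and -4.33, and ctrl replicate 3, with 3.09 CPM, fell between the medium values. The log2 fold change was -2.56 (SE 0.65, adjusted p = 0.0256, edgeR).

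Ccl7, a further ligand of Ccr2, had 6.99, 8.14 and 2.43 CPM in ctrl replicates 1 to 3, and 2.16 and 0.445 CPM in medium replicates 1 and 2. Both medium libraries lay below every ctrl library. The log2 fold change was -2.82 (SE 0.60, adjusted p = 0.0100 by the same edgeR test). Ccl12, the remaining gene of that block, had 10.4, 13.6 and 1.77 CPM in ctrl and 7.24 and 1.56 CPM in medium. Its log2 fold change of -1.95 (SE 0.72) missed the threshold, with adjusted p = 0.112 by edgeR. Ccl12 did pass with DESeq2, without the filter on low counts, and in a fit of ctrl and medium alone.

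Ccl5, which attracts T cells and monocytes, went the other way. It had 41.1, 39.2 and 6.07 CPM in ctrl replicates 1 to 3, and 152 and 85.7 CPM in medium replicates 1 and 2. Both medium libraries were above all 12 supernatant libraries, whose highest value was 43.6 CPM. The log2 fold change of medium against ctrl was 1.75 (SE 0.33, adjusted p = 0.00473, edgeR).

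The other genes of the second block differed less. Ccl4, a macrophage inflammatory protein, had 42.7 and 41.6 CPM in ctrl replicates 1 and 2 and 83.4 and 53.7 CPM in medium replicates 1 and 2. Its log2 fold change was 0.79 (SE 0.20, adjusted p = 0.0271, edgeR), under the threshold of 1. Ccl6 had 269 and 284 CPM in ctrl replicates 1 and 2 and 485 and 406 CPM in medium. Its log2 fold change was 0.82 (SE 0.24, adjusted p = 0.0454, edgeR). Neither gene's medium values overlapped those of ctrl. Ccl3 had a log2 fold change of 0.38 (adjusted p = 0.333, edgeR; 95% interval -0.10 to 0.87). Ccl9, the most abundant member, had a log2 fold change of 0.11 (adjusted p = 0.765, edgeR; 95% interval -0.27 to 0.48). Its sign turned with scaling by library size alone and in a fit of ctrl and medium alone.

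Ccl24, the eotaxin, had 0.304, 0.201 and 0.442 CPM in ctrl and 1.14 and 1.22 CPM in medium. The medium values were above all ctrl values, but they rest on 20 counts in medium against 5 in ctrl replicates 1 and 2, a ratio of 4.70 (95% interval 1.71 to 16.0, counting error only). The log2 fold change was 2.02 with adjusted p = 0.0829 by edgeR, which missed the threshold.

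Read along chromosome 11, all 4 members of the block from Ccl2 to Ccl8 had a negative log2 fold change in medium against ctrl, between -4.80 and -1.95, with 3 called. All 5 members of the block from Ccl5 to Ccl4 had a positive one, between 0.11 and 1.75, with 1 called. That of Ccl9 turned negative with library size alone and in a fit of ctrl and medium alone. With libraries left out it reached down to -0.050. Genes of a block are neighbours and not independent samples, so the split is a description.

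**Figure D2:**
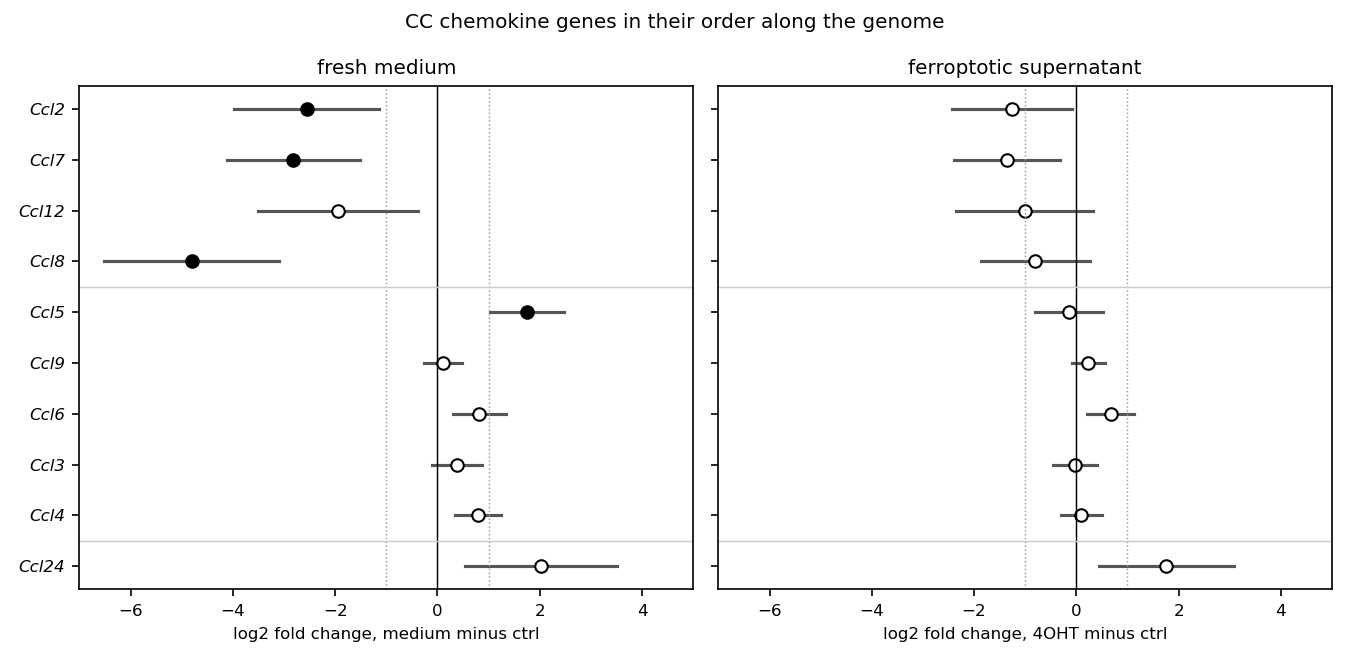
Log2 fold changes with 95% intervals of the 10 genes in medium against ctrl (left) and in the ferroptotic supernatant (4OHT) against ctrl (right), in genome order with grey lines between the chromosome 11 blocks and Ccl24; filled points were called and dotted lines mark a log2 fold change of 1 in size. In medium the upper 4 genes lie below 0 and 3 are filled, and in 4OHT none is filled.

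The calls in medium rest on the replicate number as a block and on few libraries. Without the block, 0 of 10 members were called in medium against ctrl. Leaving out replicate 1 left 1 member (Ccl2) and leaving out replicate 2 left 0. Leaving out medium replicate 1 left Ccl2 and Ccl7, and leaving out medium replicate 2 left Ccl5 and Ccl8. Without ctrl replicate 2, Ccl2 had an adjusted p of 0.135 by edgeR. Without replicate 3, all 4 calls stood.

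Markers of other cells moved with the same comparison. The summed level of 8 neutrophil markers was 38.2 to 55.2 CPM in medium and 2.87 to 16.9 CPM in ctrl, and 2 of its 4 tested genes were called higher in medium, while Ly6g and Elane had 0 counts in every library. The sum of 8 fibroblast markers was 33.5 to 103 CPM in medium and 18.4 to 50.1 CPM in ctrl, with 2 of 4 tested genes called higher. Col3a1, another of the tested genes, had a negative log2 fold change (-0.74) and was not called. The same sum was 19.3 to 121 CPM in Fer1 and 15.5 to 93.8 CPM in 4OHT+Fer1. Of 6 T and NK cell markers, 5 had 0 counts in every library, the T cell markers Cd3e and Cd3g among them. Macrophage markers summed to 27772 to 34651 CPM in medium and 19197 to 28171 CPM in ctrl. The part of these markers in the chemokine differences was not tested.

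The second question was whether ferroptotic supernatant changed these genes. No member was called in 4OHT against ctrl by edgeR or by DESeq2, where 1.11% of all genes were called by edgeR. At an unadjusted p under 0.05, 4 of 10 members passed (Ccl2, Ccl6, Ccl7 and Ccl24), where 10.8% of all genes did. The median log2 fold change of the members was -0.09, beside 0.01 for all genes.

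Ccl6 came nearest. It had 379, 425 and 321 CPM in 4OHT replicates 1 to 3, and 269, 284 and 163 CPM in ctrl. Every 4OHT library was above every ctrl library. The log2 fold change was 0.67 (SE 0.21, adjusted p = 0.204, edgeR), with 4OHT higher in 3 of 3 replicates. Ccl24 was also higher in 3 of 3 replicates, at 0.632, 1.90 and 0.759 CPM in 4OHT, which makes 33 counts against 9 in ctrl, a ratio of 3.73 (95% interval 1.74 to 8.85, counting error only; adjusted p = 0.260, edgeR). Macrophage markers summed to 28537 to 44222 CPM in 4OHT and 19197 to 28171 CPM in ctrl. None of the 8 was called, 4 had an unadjusted p under 0.05 by edgeR, and 5 had a positive log2 fold change. For Csf1r and Mertk, as for Ccl6, every 4OHT library was above every ctrl library. The part of these markers in the Ccl6 difference was not tested.

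The 4 monocyte chemoattractants had negative log2 fold changes in 4OHT against ctrl, and none passed. Ccl7 had 4.32, 3.17 and 0.380 CPM in 4OHT, lower than ctrl in 3 of 3 replicates, with a log2 fold change of -1.36 (SE 0.47, adjusted p = 0.266, edgeR). Ccl2 had 11.4, 7.80 and 1.01 CPM, lower in 3 of 3 replicates, with a log2 fold change of -1.25 (SE 0.54, adjusted p = 0.419, edgeR). Ccl12 and Ccl8 had log2 fold changes of -1.01 and -0.80 with adjusted p of 0.642 and 0.645 by edgeR.

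For the genes with narrower errors, the intervals limit how large a difference could be. In 4OHT against ctrl the 95% interval of the log2 fold change was -0.46 to 0.40 for Ccl3, -0.31 to 0.51 for Ccl4, -0.80 to 0.52 for Ccl5 and -0.09 to 0.57 for Ccl9. Each of these excludes a log2 fold change of 1 in either direction. Those of Ccl2, Ccl7, Ccl12 and Ccl8 do not exclude it on the lower side. Those of Ccl6 (0.21 to 1.13) and Ccl24 (0.44 to 3.09) do not exclude it on the upper side. For these genes a difference of that size was neither called nor excluded.

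Against the supernatant of MEFs protected by Fer1 (4OHT+Fer1), which received the same 4OHT without ferroptosis, again no member was called, by edgeR or DESeq2, and 1.03% of all genes were called by edgeR. At an unadjusted p under 0.05, 3 of 10 members passed (Ccl6, Ccl8 and Ccl3), beside 11.8% of all genes. Ccl6 had 146, 268 and 208 CPM in 4OHT+Fer1, all below the lowest 4OHT library. Its log2 fold change in 4OHT was 0.84 (SE 0.21, adjusted p = 0.0921, edgeR), with 4OHT higher in 3 of 3 replicates. Over 16 alternatives, by edgeR or DESeq2, the adjusted p of Ccl6 lay between 0.0136 and 0.669. The log2 fold change lay between 0.57 and 1.02 over them, and none called it. This comparison and that with ctrl share the 4OHT libraries. Among 4 tested fibroblast markers, 1 (Col1a1) was called lower in 4OHT than in 4OHT+Fer1 (log2 fold change -1.14, adjusted p = 0.0456, edgeR), with overlapping groups. No neutrophil or macrophage marker was called there. Of 4 tested neutrophil markers, 4 had a positive log2 fold change and 2 an unadjusted p under 0.05 by edgeR. Of 8 macrophage markers, 4 had a positive log2 fold change. An unadjusted p under 0.05 by edgeR was reached by 4, with Adgre1, Mertk and Lyz2 higher in 4OHT and Fcgr1 lower. The part of these markers in the chemokine values was not tested.

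Ccl8 had 8.64, 3.26 and 0.127 CPM in 4OHT and 10.0, 7.75 and 2.46 CPM in 4OHT+Fer1. It was lower in 4OHT in 3 of 3 replicates, and the value of replicate 3 is 1 count. Its log2 fold change was -1.30 (SE 0.51, adjusted p = 0.317, edgeR). Ccl3 had 60.8, 54.6 and 34.5 CPM in 4OHT and 96.2, 92.8 and 31.6 CPM in 4OHT+Fer1, with a log2 fold change of -0.43 (adjusted p = 0.423, edgeR). Replicate 3 went against replicates 1 and 2 for that gene.

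In the comparisons between supernatants without ferroptosis, no member passed the test. In 4OHT+Fer1 against Fer1, 0 of 10 members were called by edgeR or DESeq2 and 0 passed an unadjusted p of 0.05, where 0.0233% of all genes were called and 2.07% passed the unadjusted p. In Fer1 against ctrl, 0 of 10 were called by either tool and 0 passed the unadjusted p, where 0% of all genes were called and 1.14% passed the unadjusted p. Ccl6, for instance, had 263, 236 and 199 CPM in Fer1. The difference of the 4OHT effect without and with Fer1 was called for no member by edgeR or DESeq2 (0.0311% of all genes by edgeR). Ccl6 was the only member at an unadjusted p under 0.05 in that test, where 6.20% of all genes were, with a difference of 0.83 on the log2 scale (adjusted p = 0.622, edgeR).

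The third comparison set the ferroptotic supernatant against fresh medium. Here 2 of 10 members were called, Ccl8 higher and Ccl5 lower in 4OHT, where 3.07% of all genes were called (1.42% higher and 1.64% lower). With library size alone as the scaling, 393 genes were called with 232 higher, in place of 394 with 183 higher, and both member calls stood. Ccl5 had 34.1, 33.1 and 7.34 CPM in 4OHT, below both medium libraries, and its log2 fold change was -1.89 (SE 0.34, adjusted p = 0.00859, edgeR). Ccl8 had a log2 fold change of 4.01 (adjusted p = 0.0158, edgeR), or 118 counts in 4OHT replicates 1 and 2 against 5 in medium, a ratio of 19.4 (95% interval 8.08 to 60.8, counting error only). 4OHT replicate 3, with 1 count or 0.127 CPM, lay below both medium libraries, so the groups overlap when that library is included. Ccl4 had a log2 fold change of -0.69 (adjusted p = 0.0925, edgeR) and Ccl7 one of 1.46 (adjusted p = 0.248, edgeR). These values share the medium libraries with the comparison against ctrl.

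Markers of other cells moved with this comparison too. The fibroblast collagens Col1a1 (log2 fold change -1.53, adjusted p = 0.00865, edgeR) and Col1a2 (-1.14, adjusted p = 0.0380, edgeR) were called lower in 4OHT than in medium, 2 of 4 tested fibroblast markers, and the sum of the 8 was 15.6 to 49.0 CPM in 4OHT and 33.5 to 103 CPM in medium. Neutrophil markers summed to 4.05 to 28.0 CPM in 4OHT and 38.2 to 55.2 CPM in medium. Of the 8 macrophage markers, 1 (Fcgr1) was called lower in 4OHT, and their sum was 28537 to 44222 CPM in 4OHT and 27772 to 34651 CPM in medium. Their part in the differences of Ccl5 and Ccl8 was not tested.

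Both calls depended on few libraries. Without the replicate block 0 of 10 members were called in 4OHT against medium. The count was also 0 without replicate 1, without replicate 2, without medium replicate 1 and without 4OHT replicate 1, and it was 1 (Ccl5) without medium replicate 2 or without 4OHT replicate 2.

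**Figure D3:**
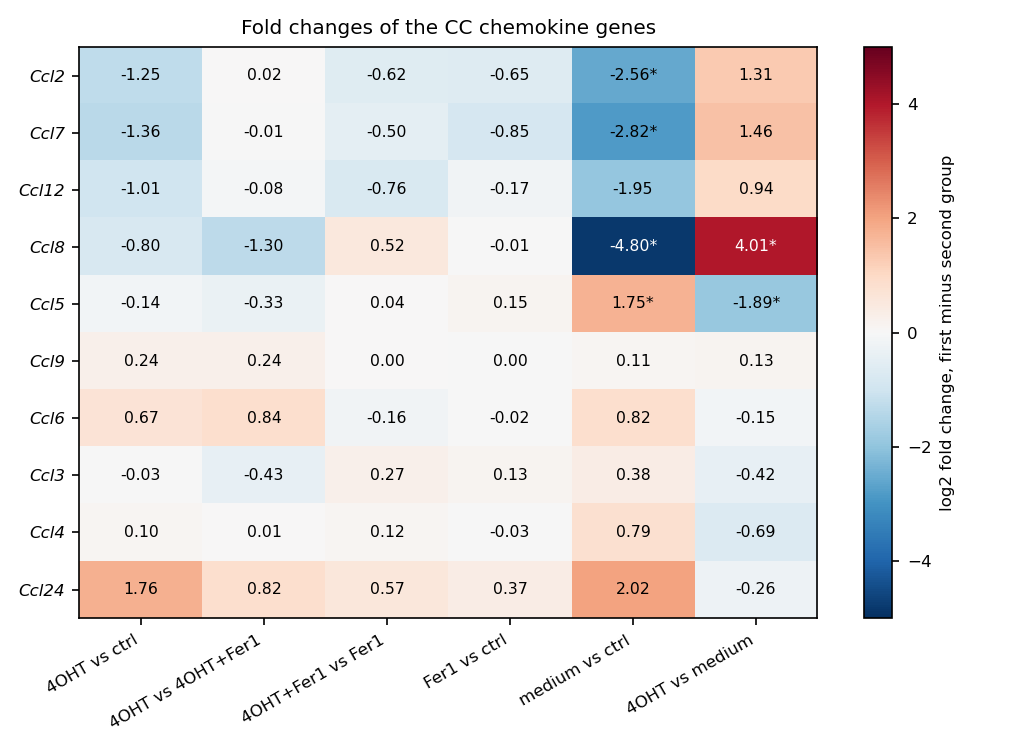
Log2 fold change (colour and number, first minus second group) of the 10 genes in 6 comparisons, with an asterisk on those called. The asterisks stand in the 2 columns with medium, and Ccl8 and Ccl5 carry one in both.

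The receptors of these ligands were measured in the same cells. Of 15 receptor genes of the CC family, 5 were tested, and the others were too low. Ccr1, the receptor of Ccl6, Ccl9, Ccl3 and Ccl5, had 21.6, 24.3 and 50.7 CPM in ctrl and 4.06 and 3.11 CPM in medium. It was called lower in medium, with a log2 fold change of -3.17 (SE 0.55, adjusted p = 0.00260, edgeR), and the groups did not overlap. It was 1 of the 5 tested receptors called in that comparison. Ccr2, the receptor of Ccl2, was abundant, between 161 and 401 CPM in replicates 1 and 2 of the supernatants and 354 and 368 CPM in medium. Like most of the ligands it was lowest in replicate 3 of each supernatant, down to 23.0 CPM in 4OHT. No receptor was called in 4OHT against ctrl.

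Among 13 other CC ligands, only Ccl25 and Ccl27a passed the filter on low counts, and none was called in any comparison. Of 17 chemokines of the other families, 10 were tested. In medium against ctrl, the interferon-inducible Cxcl10 (log2 fold change 2.35, SE 0.43, adjusted p = 0.00369, edgeR) and the neutrophil attractant Cxcl2 (1.56, SE 0.30, adjusted p = 0.00554, edgeR) were called higher. Pf4, the platelet factor that macrophages also make, was called lower (-1.58, SE 0.30, adjusted p = 0.00470, edgeR). Cxcl10 had 81.7, 32.5 and 42.6 CPM in ctrl and 484 and 174 CPM in medium, so both medium libraries were above every ctrl library, as for Ccl5. In 4OHT against medium, Cxcl10 (-2.07, adjusted p = 0.0148, edgeR) and Cxcl14 (-1.55, adjusted p = 0.00317, edgeR) were called lower and Pf4 (1.79, adjusted p = 0.00611, edgeR) was called higher. None of the 17 was called in 4OHT against ctrl.

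**Figure D4:**
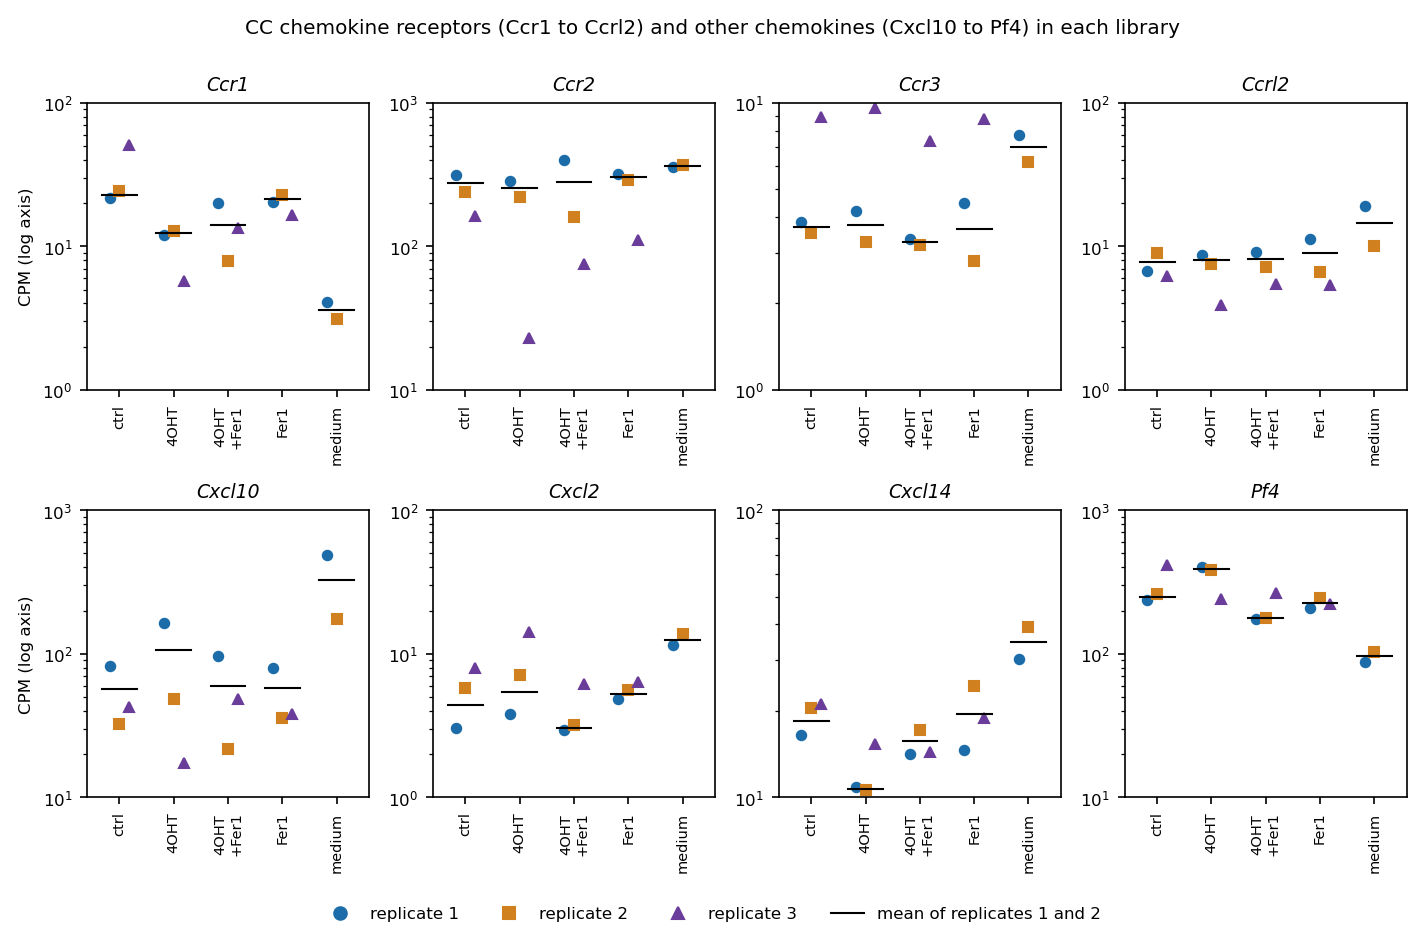
CPM (log axes that differ between panels) of 4 CC receptor genes and of Cxcl10, Cxcl2, Cxcl14 and Pf4 in every library, with symbols for the replicate number and a line at the mean of replicates 1 and 2. Ccr1 and Pf4 lie lowest in medium and Cxcl10 lies highest there.

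The genes whose pattern over the 14 libraries was most like that of each called member were found by the mean absolute difference of standardised log2 CPM, where 0 is an identical pattern. For Ccl5 these were Znfx1 (0.13), Ddx58 (0.16) and Dtx3l (0.17). For Ccl2 the nearest were its neighbours Ccl7 (0.28) and Ccl12 (0.29). For Ccl7 they were Msrb2 (0.27), Ccl2 (0.28) and Acsl4 (0.30), and for Ccl8 Rps3 (0.26), Micos10 (0.29) and Olfm1 (0.31). All of these share the same 14 libraries, and the likeness includes the difference between replicate numbers.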

How the data were processed

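RNA of 14 pBMDM samples was sequenced from the 3′ end (QuantSeq). The authors aligned reads with STAR 2.7.10a and quantified genes with Salmon 1.5.2, and deposited estimated counts (expected counts per gene, not normalized). The submitters' processing notes name the builds GRCh38 and GRCm38. The identifiers are those of mouse genes, and positions come from GRCm38 with GENCODE M21. Whether counting used the strand is not given in the sources used here. The authors' table of their own fold changes, p-values and CPM was not used.

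Estimated counts were rounded, since 30109 values were not whole, given TMM factors, and tested in edgeR 4.0.16 (R 4.3.3, limma 3.58.1) with its quasi-likelihood test, adjusted over genes by Benjamini-Hochberg. 1 model of all 14 samples held group and replicate number, as the study's design used mouse ID. The number was taken to be the mouse, which is an assumption. Deviations from group means of same-numbered samples had a median correlation of 0.25 (0.00221 to 0.65, 26 pairs), and of others -0.14 (52 pairs). filterByExpr with a minimum count of 10 kept 12851 genes. The plan spoke of counts, and the deposited unit is estimated counts. No label says that replicates came from separate cultures, so p-values measure the spread between these samples. Differences within a replicate used log2 CPM with a prior count of 2. Ratios of counts have exact 95% binomial intervals. Scripts were tested on simulated data.

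The members and lists were chosen with earlier results of these data known. All members are named, with every called gene of the lists of other CC ligands, CC receptors and other chemokines, further receptors and ligands by level, and the 3 most alike genes of each called member. Values of some genes are not given. Alternatives were DESeq2 1.42.0, no replicate block, only the groups compared, other filters and scalings, no fold change threshold, and each replicate left out. Protein sequences were not used here.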

Additional observations from a re-analysis of the deposited data

How the results depend on the processing

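The number of members called was 4 in medium against ctrl and 2 in 4OHT against medium. Without the replicate block, in which the pairing by number is dropped, it was 0 in both. Leaving out 1 library or replicate number gave between 0 and 5 in medium against ctrl and between 0 and 2 in 4OHT against medium, and the cause was not tested beyond the smaller number of samples. In the other 5 comparisons the count was 0 under every alternative run. Calls of single members kept their direction under all alternatives. Log2 fold changes near 0 turned their sign. For Ccl9 in medium against ctrl it was -0.015 with library size alone, -0.0075 with only the groups compared, and between -0.050 and 0.25 with libraries left out. In 4OHT against ctrl, that of Ccl4 was -0.046 without the replicate block, and with libraries left out those of Ccl3, Ccl4 and Ccl5 lay between -0.29 and 0.091, between -0.16 and 0.32 and between -0.41 and 0.11. Depth limits Ccl8 in medium and Ccl24 everywhere. The intervals of the count ratios cover counting error only and leave out the spread between libraries. Those of the log2 fold changes come from the model and include that spread. PCR copies cannot be told from separate molecules. The medium rests on 2 libraries without a replicate 3.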
